A study of Homo sapiens with 30 samples.

Results

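The data described here are the ATAC-Seq peak lists of G401 cells that re-expressed SNF5, set against those of G401 cells that expressed EGFP. They comprise 6 of the 30 samples of the series, 3 per group. G401 is an established malignant rhabdoid tumor (MRT) line from kidney that has lost SNF5, the product of SMARCB1. Both groups are pools of cells carrying a doxycycline-inducible lentiviral construct, encoding EGFP in the control and SNF5 in the other. Both received doxycycline at 1 μg/ml for 24 h, so the control shares the vector and the drug. The study calls the replicates biological and the PRO-Seq experiments independent, but nothing in the labels ties a replicate number to a separate transduction. The p-values measure the spread between these samples. PRO-Seq of the same constructs (9 samples with OmoMYC, a MYC inhibitor that was not compared here) served as an independent readout of transcription.

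SNF5 is a core subunit of the SWI/SNF (BAF) chromatin remodelers, which use ATP to slide or evict nucleosomes. Loss of SNF5 is the hallmark lesion of MRT. BAF complexes that contain SNF5 are best known for keeping enhancers accessible, often where AP-1 or TEAD factors bind, whereas many promoters stay accessible without it. ATAC-Seq cuts DNA wherever a transposase can enter, so a peak marks a stretch of accessible chromatin.

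A peak list gives each peak its position and summit, the fold ratio of its summit to local background, and a significance. From the ratio and the significance the number of tags at the summit, and the background expected across the genome, could be worked out exactly. Here the level of a peak is its number of summit tags divided by the genome background of its library. The genome background, in tags per 140 bp, stands for the tags that entered peak calling. It need not follow the reads sequenced, and the read totals that the study lists put the libraries in another order.

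SMARCB1 itself was checked first. PRO-Seq gene body counts of SMARCB1 were 4, 1 and 6 in the EGFP samples and 2870, 4467 and 3440 in the SNF5 samples. Promoter-proximal counts were 0 in each EGFP sample and 429, 1757 and 602 in the SNF5 samples. The groups did not overlap, and the reads may come from the introduced copy. No ATAC-Seq peak lay at the SMARCB1 locus in any sample. PRO-Seq replicate 3 stood apart in each construct. Between EGFP replicates 1 and 2, 45 of 11171 genes differed by more than 4-fold in gene body counts, whereas between EGFP replicates 1 and 3 the number was 350. MET, a receptor tyrosine kinase, had normalised gene body counts of 1145, 1458 and 8.0 in the EGFP samples. Counts of called genes are therefore given with and without replicate 3, and values of single genes without it where the call turned.

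SNF5 lists held more peaks. The EGFP samples had 12484, 17817 and 9208 peaks, and the SNF5 samples had 33596, 26604 and 22722. The means were 13170 ± 4345 and 27641 ± 5511 (SD, n = 3 each), a 2.10-fold difference. The groups did not overlap, and the exact permutation test gave the smallest p that 3 against 3 samples allow (p = 0.1, two-sided). The genome background was 1.67, 1.75 and 1.13 tags per 140 bp in the EGFP samples and 2.14, 1.33 and 1.37 in the SNF5 samples. SNF5 replicates 2 and 3 had a lower background than EGFP replicates 1 and 2 and more peaks. By the study's read totals with duplicates removed, however, they had more reads than those EGFP replicates. SNF5 also had more reads in each pair of the same replicate number, but EGFP replicate 3 had more than SNF5 replicates 1 and 2. The study lists the same total and mapped reads for its ATAC-Seq and PRO-Seq samples, with other totals once duplicates are removed. Its read totals could not be checked here. The part of sequencing depth in the number of peaks was not tested. The median peak was slightly narrower with SNF5, at 251, 246 and 239 bp against 263, 264 and 248 bp, with overlapping groups (exact permutation p = 0.2).

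The extra peaks lay mostly away from transcript start sites (TSSs). Peaks with a summit at least 5 kb from any annotated TSS numbered 2501, 5304 and 1589 in the EGFP samples and 14708, 10629 and 8767 in the SNF5 samples. This was a 3.63-fold difference in means. Peaks within 1 kb of a TSS rose 1.44-fold in means, from 9149 ± 1915 to 13168 ± 1480 (SD, n = 3). The share of peaks at least 5 kb away was 22.4% ± 6.57 with EGFP and 40.8% ± 2.69 with SNF5 (exact permutation p = 0.1, the smallest possible). The share depends on the length of a list, since in the 5 lists longer than that of EGFP replicate 3 the strongest peaks were less often distal than the whole list. When each list was held to its 9208 strongest peaks, the distal share was 17.1%, 21.3% and 17.3% with EGFP and 23.7%, 22.3% and 27.7% with SNF5. The groups still did not overlap (exact permutation p = 0.1), but the difference in means was smaller, 18.6% against 24.5%.

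**Figure D1:**
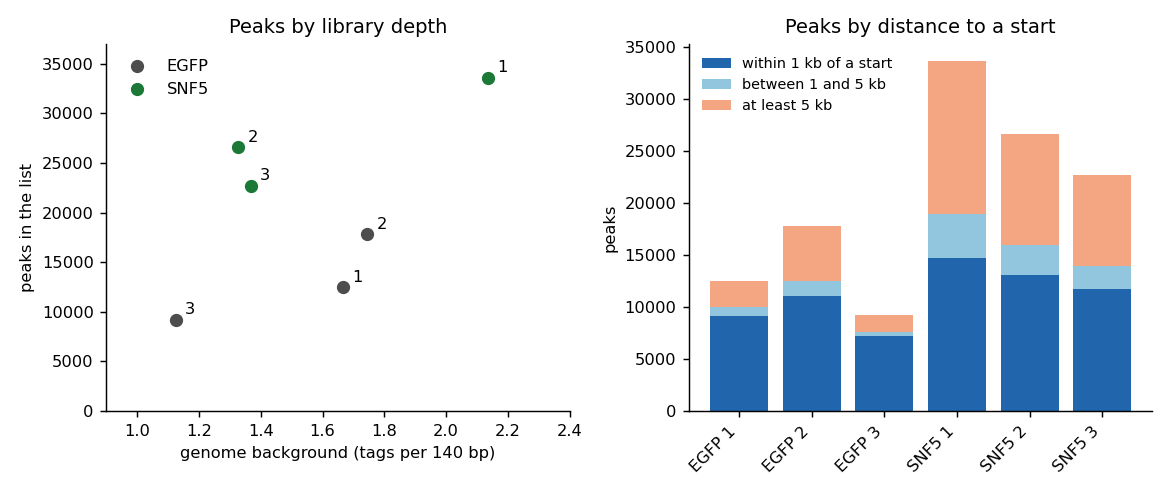
Left, peaks per list (y axis) against the genome background in tags per 140 bp (x axis) for each EGFP and SNF5 sample, with the replicate number beside each point. Right, peaks of each sample by distance of the summit to the nearest TSS. SNF5 replicates 2 and 3 have 26604 and 22722 peaks at a background below that of EGFP replicates 1 and 2, and the distal part of the bars is larger in every SNF5 sample. The study lists more reads, with duplicates removed, for SNF5 replicates 2 and 3 than for EGFP replicates 1 and 2.

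Merging overlapping peaks gave 38415 sites covered by 1 or more of the 6 lists. A site was called gained with a peak in all 3 SNF5 samples and none in EGFP, and lost in the opposite case. There were 3638 gained sites, or 9.47% of the sites, and 3 lost sites, or 0.00781%. A further 6527 sites had a peak in all 3 SNF5 samples and in 1 or 2 EGFP samples. Sites with a peak in all 6 samples, called shared here, numbered 7378. Nearly all EGFP sites persisted. Of the sites in EGFP replicates 1, 2 and 3, 99.0%, 97.0% and 99.6% were found in some SNF5 list. The count of gained sites depends on the lists that enter. Without EGFP replicate 2, the longest EGFP list, 6197 sites were gained, and without SNF5 replicate 3, the shortest SNF5 list, 6881. With the 9208 strongest peaks of each list, 325 sites were gained and 114 lost, and with 1 minimum level in every list 2493 were gained and 3 lost.

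Gained sites were distal and narrow. Their summits lay a median of 10520.5 bp from the nearest TSS, against 76 bp for shared sites. At least 5 kb away were 63.8% of gained sites (95% Wilson interval 62.2 to 65.3%, for counting error only) and 12.4% of shared sites. Within 1 kb of a TSS were 20.9% (760 sites) and 83.9%. The sites found in all SNF5 and some EGFP samples fell between, with 41.7% at least 5 kb away. Of the gained sites, 1648 (45.3%) were in introns, 1121 (30.8%) between genes and 109 (3.00%) in exons beyond 1 kb of a TSS. The median gained site was 306 bp wide, and the median shared site 625 bp, where a site spans all peaks merged into it and shared sites join more peaks. The median best peak in the SNF5 lists was 256, 225 and 205 bp wide at gained sites, against 549, 472 and 416 bp at shared sites. Chromosomes differed in the balance. Of the sites found in all 3 SNF5 samples, 25.8% were gained on chromosome 3 and 25.2% on chromosome 4. The lowest shares were 8.42% on chromosome 22, 8.68% on chromosome 19 and 9.74% on chromosome 21.

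**Figure D2:**
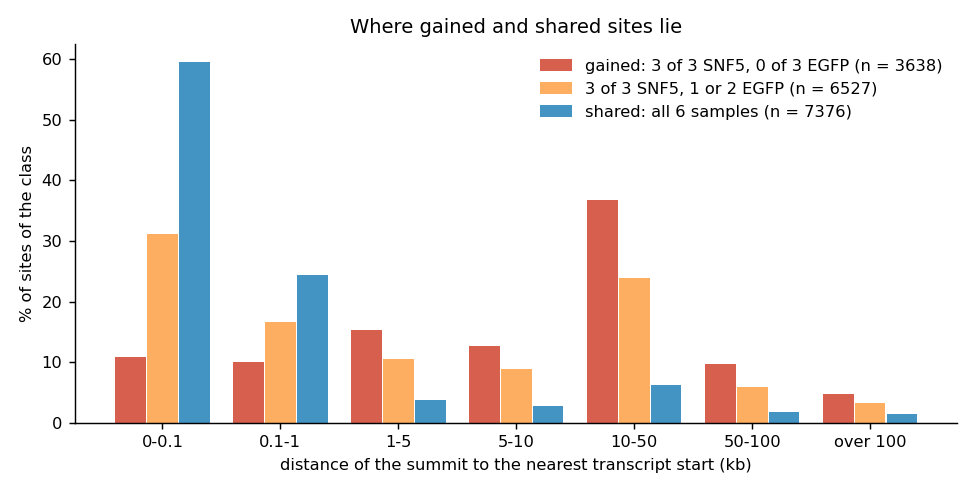
Percent of sites (y axis) by distance from the summit to the nearest TSS in kb (x axis), for gained sites, for sites in all SNF5 and 1 or 2 EGFP samples, and for shared sites. Shared sites peak within 0.1 kb (59.5%) and gained sites between 10 and 50 kb (36.7%). The 2 shared sites on the mitochondrial chromosome, where no distance was taken, are left out.

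Gained sites were of modest strength. Their median summit had 25, 19 and 19 tags in SNF5 replicates 1, 2 and 3, against 47, 36 and 32 tags at shared sites. As a level over background this was 11.7, 14.3 and 13.9, against 22.0, 27.1 and 23.4. Within the SNF5 lists gained sites had median percentile ranks of 50.2, 43.1 and 36.2, where 100 is the strongest. None was among the 1000 strongest sites of SNF5 replicates 1 or 2, and 3 were in replicate 3. In 125 gained sites (3.44%) the level exceeded the highest median level of an EGFP list (18.7) in all 3 SNF5 samples. The lists hold called peaks only, so a site with no EGFP peak may still have had EGFP tags. A shared site also had to be called in every EGFP list, so the classes differ in strength in part by definition.

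The strongest gained sites were seldom at promoters. Coordinates are in hg38 throughout. The site with the smallest mean rank, chr4:176270698-176271002, lay in an intron of ASB5, which encodes a ubiquitin ligase adapter, 1605 bp from its start, with 53, 36 and 35 summit tags. CTNNA2, a neuronal α-catenin that links cadherins to actin, had the next, in an intron at chr2:79717358-79717941, with 46, 42 and 44 tags. An intergenic site 547189 bp from SLITRK5, which encodes a neuronal transmembrane protein, had 49, 32 and 45 tags. Introns of ATP11A, a phospholipid flippase, and of GOLIM4, a Golgi membrane protein, held sites with 56, 43 and 36 tags and with 51, 37 and 29 tags. The site nearest RSPO2, a secreted enhancer of WNT signalling, lay 36740 bp away, with 40, 35 and 43 tags. The site nearest CCN2 lay 180612 bp from its start at chr6:132131772-132132190, at the start of another annotated transcript, with 41, 40 and 36 tags. The others of the 12 strongest lay nearest to C17orf67, BST1, BARD1, PDCD6IP and CTSO. All of these sites had higher tag counts than the median gained site in each SNF5 sample.

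Some genes were the nearest to several gained sites, which did not always lie inside them. LSAMP, which encodes a neuronal adhesion protein, was the nearest protein-coding start to 10, of which 9 lay inside the gene. GPC5, a cell surface heparan sulfate proteoglycan, and TENM2, a synaptic adhesion protein, each had 7, of which 5 and 4 lay inside the gene. ASTN2, a neuronal membrane protein, had 6, all of them inside the gene across 161 kb. ME3, a mitochondrial malic enzyme, SLC39A10, a zinc transporter, and TRPS1, a GATA-type repressor, had 6 each, with 5, 3 and 2 inside the gene. PRSS58, a trypsin-like protease gene, also had 6, none inside the gene, in a stretch that holds the T cell receptor beta segments. CELF4 and CTNNA2 had 5 each, with 2 and 4 inside the gene. The farthest sites of TENM2, SLC39A10, TRPS1, CELF4 and CTNNA2 lay from 1015826 to 1957611 bp from the nearest start of the gene. In all, 2639 of 19869 protein-coding genes (13.3%) were nearest to a gained site, 1971 of them to exactly 1 and 27 to at least 5. The median gap between neighbouring gained sites was 418474 bp, and 96 of 3614 neighbouring pairs (2.66%) were within 10 kb.

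A gained site lay within 1 kb of a TSS of 631 protein-coding genes (3.18%), and 383 of these genes had no EGFP peak within 1 kb. As examples, and because TEAD and AP-1 factors are known partners of BAF complexes, 4 promoters of named genes are printed below. They were chosen genes and do not stand for all promoters with a gained site. The window of MET was also read, held no match to the motifs marked below and is not printed. ANKRD1, PDLIM3 and SPARC have a gained site at the start and higher PRO-Seq counts with SNF5. CCN2 has a shared site at its start and 3 gained sites farther away. ANKRD1 encodes a muscle ankyrin repeat protein and CCN2 a matricellular growth factor, and both are classical targets of YAP and TEAD. PDLIM3 encodes an actin-associated LIM protein and SPARC a collagen-binding matrix protein. Each sequence is the 250 bases before the RefSeq start in GRCh38.p14, from 5′ to 3′ on the strand of the gene. Capitals mark GGAATG (the core of a TEAD motif) and TGANTCA, searched on both strands. TGANTCA is wider than the AP-1 motif TGASTCA in the study's motif list (S is C or G). Its counts below also include TGAATCA and TGATTCA, and the ANKRD1 match is TGATTCA, outside the AP-1 motif. The windows are chr10:90921088-90921337 (minus strand) for ANKRD1, chr4:185535508-185535757 (minus) for PDLIM3, chr5:151686916-151687165 (minus) for SPARC and chr6:131951373-131951622 (minus) for CCN2.
ANKRD1: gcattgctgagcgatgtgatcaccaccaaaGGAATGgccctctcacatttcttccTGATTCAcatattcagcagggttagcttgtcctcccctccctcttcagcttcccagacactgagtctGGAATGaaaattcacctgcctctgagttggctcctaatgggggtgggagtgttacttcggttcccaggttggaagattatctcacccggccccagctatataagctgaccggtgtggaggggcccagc
PDLIM3: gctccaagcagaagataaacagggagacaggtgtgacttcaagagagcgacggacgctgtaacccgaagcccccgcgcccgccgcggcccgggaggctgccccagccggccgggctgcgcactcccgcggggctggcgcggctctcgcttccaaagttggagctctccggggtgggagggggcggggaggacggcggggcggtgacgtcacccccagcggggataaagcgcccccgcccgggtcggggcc
SPARC: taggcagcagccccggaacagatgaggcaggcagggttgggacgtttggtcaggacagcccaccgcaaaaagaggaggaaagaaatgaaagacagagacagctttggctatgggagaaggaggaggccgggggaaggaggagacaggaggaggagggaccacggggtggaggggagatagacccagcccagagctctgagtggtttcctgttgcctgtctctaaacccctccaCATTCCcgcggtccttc
CCN2: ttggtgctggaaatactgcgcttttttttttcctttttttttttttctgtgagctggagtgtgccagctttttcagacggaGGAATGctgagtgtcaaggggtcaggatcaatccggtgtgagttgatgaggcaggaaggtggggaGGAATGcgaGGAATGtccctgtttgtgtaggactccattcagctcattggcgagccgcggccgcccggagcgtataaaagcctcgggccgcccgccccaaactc

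The ANKRD1 window held 2 GGAATG and 1 TGANTCA, the CCN2 window 3 GGAATG, the SPARC window 1 GGAATG (on the opposite strand, so it reads as the reverse complement) and the PDLIM3 window neither. The CpG counts of these windows were 4, 13, 7 and 29 in that order. RefSeq promoter windows of 300 bases (250 before to 50 after the start) were matched by symbol to 15238 protein-coding genes. Among the 243 windows whose only reproducible site was gained, GGAATG was in 16.05%, against 9.36% of the 4840 windows with a shared site and 11.6% of all windows. TGANTCA was in 6.58%, 2.93% and 5.71%. CACGTG, the E-box that MYC binds, was in 7.41%, 11.1% and 8.91%. Among the 7012 windows with no EGFP or SNF5 peak, GGAATG was in 982 (14.005%) and TGANTCA in 578 (8.24%). Windows with no peak thus held GGAATG more often than shared windows and somewhat less often than gained windows. They held TGANTCA more often than gained windows did. These differences were not tested. The median CpG count was 25 in windows with a gained site, 28 with a shared site and 8 with no peak.

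At the shared sites no change in the order of the peaks passed. Every shared site was ranked again within each sample, from 0 to 100 with 100 as the strongest. The mean rank with SNF5 minus that with EGFP averages 0 over these sites by construction, and its median was −0.01 points. More than 20 points up were 474 sites, and more than 20 points down 441. Spearman correlations of the order were 0.68 to 0.78 between EGFP and SNF5 samples. Among the EGFP samples alone they were 0.67 to 0.74, and among the SNF5 samples 0.77 to 0.80. No site passed limma's test on the ranks at an adjusted p of 0.05 (0% of 7378), with 275 higher and 257 lower at an unadjusted p under 0.05. The SNF5 samples ranked a site above all EGFP samples at 423 sites (5.73%) and below all of them at 470 (6.37%). Sites at least 5 kb from a TSS spread a little more than those within 1 kb, with 6.91% above and 8.22% below against 5.57% and 6.06%. Other ways to rank gave from 0 to 3 sites higher and from 0 to 10 lower.

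The largest shifts in rank are given as values that did not pass. The largest rise was at an intronic site of AGBL1, which encodes a carboxypeptidase, with percentile ranks of 4.97, 0.745 and 12.6 in EGFP and 60.4, 49.4 and 85.2 in SNF5 (limma adjusted p = 0.088). CD55, a complement regulator, had at its start ranks of 23.02, 16.02 and 25.99 in EGFP and 68.1, 78.5 and 80.1 in SNF5 (limma adjusted p = 0.194). The start of ITPRID2, an intronic site of PAX5, a B cell factor, and the site nearest CAPRIN2 had the other large rises, of 50.5, 49.3 and 52.0 points. The largest changes downwards were at the site nearest FRG2C (−53.9 points, with groups that overlapped), at chr16:34582154-34582464 (−51.5 points) and at the start of AK3, a mitochondrial adenylate kinase, with ranks of 76.3, 55.9 and 48.2 in EGFP and 10.8, 4.53 and 22.4 in SNF5. The remaining ones were at chr4:49321329-49321592 (−47.5 points) and chr21:10325709-10325961 (−46.7 points). These and the site on chromosome 16 lie beside centromeres, which are rich in repeats.

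Although no change in rank passed, the level of shared sites was higher with SNF5. The median level was 17.4, 20.1 and 19.6 in the EGFP samples and 22.0, 27.1 and 23.4 in the SNF5 samples (exact permutation p = 0.1, the smallest possible), and the median ratio over sites was 1.28. At 3226 sites (43.7%) every SNF5 level was above every EGFP level, and at 9 (0.122%) every one was below. In a limma fit of the log2 level, 1534 sites (20.8%) were higher and 1 (0.0136%) lower at an adjusted p under 0.05. More sites passed when the replicate number was fitted as a block. Leaving out 1 sample moved the sites called higher from 67, without SNF5 replicate 3, to 1909, without SNF5 replicate 1. They were 185 without EGFP replicate 1, 522 without EGFP replicate 3 and 324 without SNF5 replicate 2. The difference was alike at promoters and away from them, with a median log2 difference of 0.35 within 1 kb of a TSS and 0.36 at least 5 kb away. Of the shared sites 95.8% had a log2 difference above 0. The best peak at these sites was also wider with SNF5, at 549, 472 and 416 bp against 346, 431 and 277 bp, with overlapping groups (exact permutation p = 0.2). More accessible chromatin at nearly every site and a better yield of tags in peaks over background in the SNF5 libraries cannot be told apart from these lists.

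**Figure D3:**
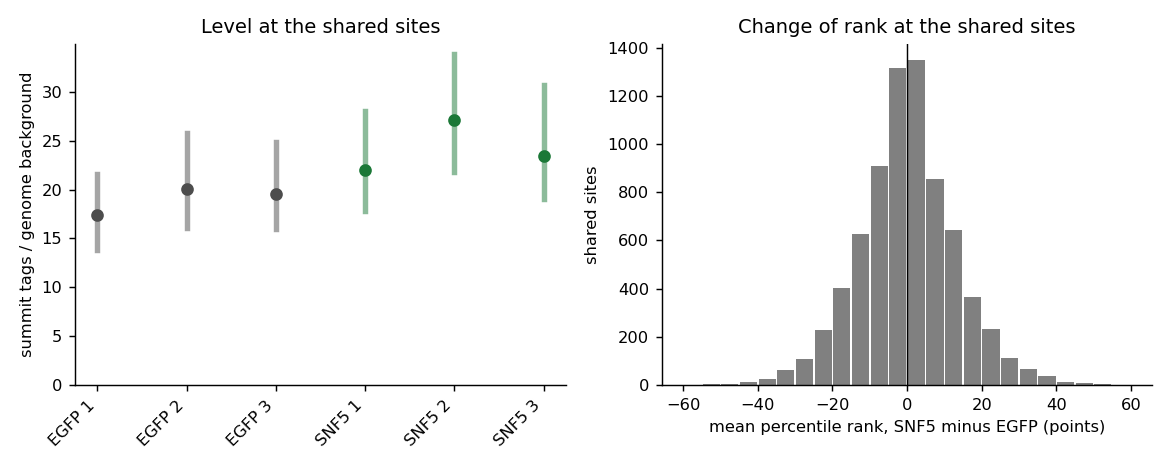
Left, level (summit tags over genome background, y axis) at the 7378 shared sites in each sample, with the median as a point and the quartiles as a bar. Right, number of shared sites (y axis) by change in mean percentile rank, SNF5 minus EGFP (x axis). The medians are 17.4 to 20.1 with EGFP and 22.0 to 27.1 with SNF5. The changes in rank average 0 by construction, since the same sites are ranked in every sample.

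The 3 lost sites had little in common. The first, chr11:61967535-61967784, is at the start of FTH1, the ferritin heavy chain that stores iron, with 22, 31 and 23 summit tags in the EGFP samples. FTH1 PRO-Seq gene body counts did not pass (log2 change 0.15 ± 0.07 SE, edgeR adjusted p = 0.136). The next, chr15:35246442-35246853, is in an intron of DPH6, a diphthamide synthesis gene, with 21, 25 and 19 tags, and 83 bp from a separate site with a peak in 2 SNF5 samples. The last, chr16:46388655-46388840, is between genes beside a centromere, with 64, 62 and 61 tags, and lies between sites 661 and 801 bp away that have a peak in all 3 SNF5 samples.

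Gene families were then compared by the gained sites nearest to their members. Genes differ in how much of the genome lies nearest to them, so sites up to 500 kb from a start are also given per Mb of the genome nearest to the genes within that distance. Over all protein-coding genes this was 1.34 gained sites per Mb. A different scale is the number of gained sites per 100 shared sites nearest to the same genes, 49.3 over all genes, and it orders the families differently. Most families have few sites, and none of these densities was tested. HOX genes, which pattern the body axis, had none near any of 39 members, in a compact 0.826 Mb.

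Per Mb, regulators of the G1 phase and the TEAD and YAP pathway had the highest values of the 14 families, whereas per 100 shared sites they had 72.7 and 125, below the 300.0 of neural genes. CDK inhibitors and other G1 regulators had 3.64 per Mb from 8 sites, with 5 of 20 genes nearest to a gained site. CDKN2A, which encodes the CDK inhibitor p16, had a gained site 39 bp from a start with 25, 18 and 21 summit tags. CDK6, a G1 kinase, was nearest to 4. TEAD and YAP genes had 3.63 per Mb from 15 sites, with 10 of 20 nearest. Within 1 kb of a start, ANKRD1 had a site with 32, 28 and 27 tags, and AJUBA, a LIM protein that restrains the LATS kinases, one with 28, 21 and 18. CCN2 was nearest to 3 and AMOTL1, a YAP-binding protein of cell junctions, to 2.

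Signalling, matrix and contractile genes had from 1.68 to 2.66 gained sites per Mb. The AP-1 and ATF factors had 2.66 per Mb, from 4 sites, but 44.4 per 100 shared sites, below the value over all genes, with 3 of 17 genes nearest and none with a gained site within 1 kb. JUN, an AP-1 subunit, was nearest to 2, in introns of other transcripts 28347 and 64984 bp away, with 28, 20 and 17 and with 29, 31 and 24 tags. The TGF-beta and BMP pathway had 2.14 per Mb and 104 per 100 shared sites, with 15 of 41 nearest (36.6%). Gained sites lay at starts of ACVR1, a type I receptor, SMAD7, an inhibitory SMAD, BMP6, a ligand, and LTBP1, which holds latent TGF-beta, and TGFB2, a ligand, was nearest to 5. Collagen, laminin and matrix genes had 2.11 per Mb and 158 per 100 shared sites. SPARC had sites at 2 starts, with 40, 31 and 26 and with 44, 24 and 17 tags, and was nearest to 4. THBS1, a matricellular glycoprotein, was nearest to 3. Receptor tyrosine kinases had 1.68 per Mb and 132 per 100 shared sites, with gained sites at starts of NTRK2, IGF1R, ERBB3 and MET, and 4 nearest to EPHA3. The WNT pathway had 1.80 per Mb and 106 per 100 shared sites, with DKK2, a secreted antagonist, and ZNRF3, a ligase that removes the receptor, gaining a site at a start and TCF7L2, a β-catenin partner, nearest to 5. Contractile and smooth muscle genes had 1.71 per Mb from 6 sites, with 8 shared sites. Among them was ACTA2, the smooth muscle actin, with a gained site of 23, 21 and 21 tags 684 bp from a start. Of the genes named here with a gained site at a start, ACVR1, IGF1R and ZNRF3 also had a shared site within 1 kb of a start. The MET promoter also held a site with a peak in all SNF5 samples and in 1 or 2 EGFP samples.

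The other families had from 0.897 to 1.52 per Mb, but some of them many gained for each shared site. BAF and PBAF subunits had 1.52 per Mb from 7 sites, with gained sites at starts of SMARCA2, the BRM ATPase, SMARCC2 and SS18L1. The SMARCA2 site, 2 bp from a start, had 51, 29 and 32 tags. Neural and axon guidance genes had the largest share of genes nearest to a gained site, 16 of 30 (53.3%) with 36 sites. This was 300.0 per 100 shared sites, the highest of the families, but 1.21 per Mb, since a median of 789 kb lay nearest to each of them, against 55.8 kb over all genes. SEMA3E, a secreted guidance cue, had 4, of which the intronic one had 35, 34 and 32 tags. PLXNA2, a semaphorin receptor, and NRXN3, a synaptic adhesion protein, had 4 each. Cytosolic ribosomal proteins had 1.27, with 5 of 76 genes nearest (6.58%). Integrins, cadherins and adhesion genes had 1.06 per Mb but 180.0 per 100 shared sites, with gained sites at starts of CD44, ITGA1 and NCAM1, and kidney development factors had 0.897 per Mb, with PAX8 and GDNF gaining a site at a start and OSR1 nearest to 4.

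PRO-Seq, which maps engaged RNA polymerase, was then set beside the gained sites. In gene bodies 1732 of 11171 genes were higher with SNF5 (15.5%) and 1633 lower (14.6%) by edgeR's quasi-likelihood test at an adjusted p under 0.05. Of the 394 tested genes with a gained site within 1 kb of a start, 96 were higher (24.4%) and 52 lower (13.2%), with a median log2 change of 0.04 against −0.02 over all genes. Of the 1104 genes nearest to a gained site but with none within 1 kb, 394 were higher (35.7%) and 85 lower (7.70%), with a median of 0.12. Of the 4700 genes with a shared site and no gained site, 751 were higher (15.98%) and 652 lower (13.9%). Of genes nearest to 1 gained site 29.0% were higher, of those nearest to 2, 47.4%, and of those nearest to 3 or more, 41.1%. Without replicate 3, more genes were lower (3424, or 30.7%) than higher (2765, or 24.8%) over all genes. With a gained site within 1 kb 35.3% were then higher and 28.2% lower, and with one farther away 49.2% and 20.5%. Without replicate 1, 617 genes were higher and 144 lower over all genes (43 and 7 of those with a gained site within 1 kb), and without replicate 2, 629 and 146 (47 and 6). Without the block for the replicate number, 108 genes were higher and 4 lower over all genes, and 9 and 0 of those with a gained site within 1 kb.

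Genes near gained sites were longer, and longer genes were more often higher. The median tested transcript spanned 68362 bp where the gained site was farther than 1 kb, against 27017 bp over all genes. In 4 equal bins of transcript length, the shortest bin had 10.6% of genes with a gained site higher and 18.4% lower, against 2.66% and 22.6% of the others. The longest bin had 46.0% higher and 5.38% lower with a gained site, against 29.9% and 10.4% of the others. In 4 equal bins of mean count the shares higher ran from 26.4% to 35.6% with a gained site and from 9.34% to 19.7% without. Promoter-proximal counts, taken near the start where polymerase pauses, gave fewer calls, with 351 genes higher (3.14%) and 125 lower (1.12%) over all genes. Of genes with a gained site within 1 kb 24 of 394 were higher (6.09%) and 5 lower, and of those with one farther away 76 of 1104 were higher (6.88%) and 15 lower. Without replicate 3 these counts were 524 and 108 over all genes, 33 and 3, and 102 and 13. Without the block no gene passed in this region, with 34 higher and 1 lower at an unadjusted p under 0.05. Total promoter-proximal counts were 517824, 2920064 and 2535633 in the EGFP samples and 660343, 3381190 and 2024662 in the SNF5 samples. Replicate 1 was thus low in both groups, and counts in this region were scaled by gene body totals. The part of this in the number of calls was not tested.

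The 8 genes with the smallest p among the higher ones with a gained site within 1 kb rose by 1.05 to 3.15 on the log2 scale. PDLIM3 had normalised gene body counts of 114, 182 and 155 with EGFP and 1261, 1350.1 and 1375 with SNF5, a log2 change of 3.15 ± 0.16 (SE, edgeR adjusted p = 1.37e-05). ANKRD1 had 167, 170 and 31.0 with EGFP and 1317, 1396 and 122 with SNF5, so SNF5 replicate 3 lay within the EGFP range but above EGFP replicate 3. Its log2 change was 2.79 ± 0.19 (edgeR adjusted p = 5.01e-05). LMO7, a LIM protein of cell junctions, rose from 1776, 1779 and 1964 to 9282, 9717 and 7904. LIMA1, which crosslinks actin filaments and also had a shared site within 1 kb of a start, rose from 1293, 1663 and 1139.6 to 4108, 5596 and 3836. DOCK11, an activator of CDC42, rose from 197, 205 and 89.9 to 807, 788 and 350. MET rose from 1145, 1458 and 8.0 to 3061, 4022 and 33.2, so the replicate 3 pair lay far below the others. PRSS23, a secreted protease, and RCAN1, a calcineurin inhibitor, rose by 1.05 and 1.10 on the log2 scale. Without replicate 3 all of these passed, with log2 changes of 3.16 for PDLIM3, 3.00 for ANKRD1 and 1.43 for MET.

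The genes with a gained site within 1 kb that fell did so by less. TAFA5, a secreted brain protein, fell from 8495, 6743 and 10549 to 5594, 4987 and 7879, a log2 change of −0.49 ± 0.05 (edgeR adjusted p = 0.000443). TIMP1, an inhibitor of matrix proteases, fell from 397, 514 and 470 to 277, 314 and 287, and its groups did not overlap. KIAA0319, PDE4A (a cyclic AMP phosphodiesterase), OSGIN1, SEMA4B, RPA1 (a subunit of the single-stranded DNA binding protein) and ADARB1 (an RNA editing enzyme) were the others, with log2 changes from −0.63 to −0.28.

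**Figure D4:**
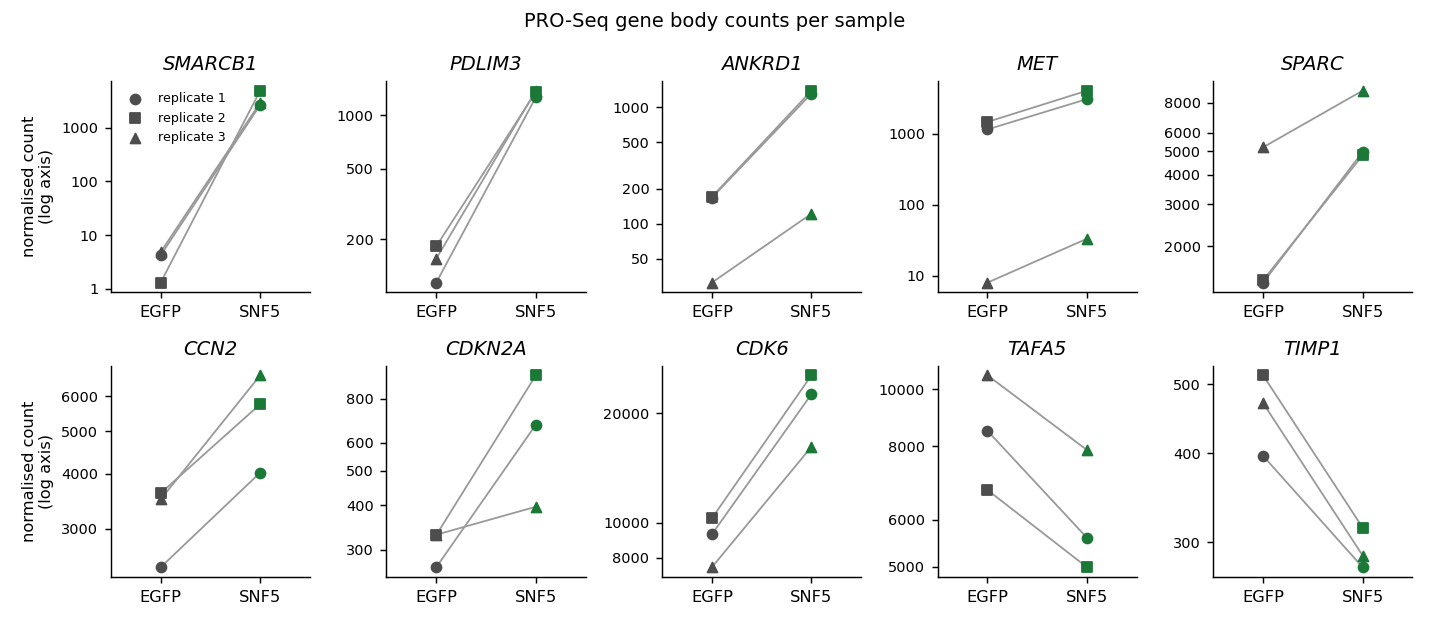
Normalised PRO-Seq gene body counts (y axis, log scale) in EGFP and SNF5 samples for SMARCB1, 7 genes near gained sites that were higher and 2 that were lower with SNF5. Lines join samples of the same replicate number. Every line rises for PDLIM3, ANKRD1, MET, SPARC, CCN2, CDKN2A and CDK6 and falls for TAFA5 and TIMP1, while replicate 3 (triangles) sits far from the others in ANKRD1, MET and SPARC.

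The families differed in PRO-Seq too. Over all matched protein-coding genes 1641 of 10335 were higher and 1566 lower. Contractile and smooth muscle genes had 13 of 21 tested higher and none lower, with a median log2 change of 0.40. ACTA2 rose from 379.9, 379.9 and 826 to 719, 758 and 934, and ACTN1, an actin crosslinker, rose by 0.40 on the log2 scale. Matrix genes had 12 of 20 higher and none lower, with a median of 0.32. SPARC rose from 1407, 1440.5 and 5207 to 4985, 4822 and 9006 (log2 change 1.46 ± 0.19, edgeR adjusted p = 0.00104), and THBS1 rose by 0.61. TEAD and YAP genes had 8 of 16 higher and 2 lower, with CCN2 going from 2449, 3611 and 3495 to 4022, 5756 and 6696 and AJUBA rising by 0.78. AMOTL1 did not pass (log2 change 0.44 ± 0.15, edgeR adjusted p = 0.0513) but passed without replicate 3, with a smaller change (0.15, edgeR adjusted p = 0.000814). Without replicate 3 these 3 families had 14 higher and 2 lower, 14 and 4, and 11 and 2, and over all matched genes 2581 and 3265.

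Neural and axon guidance genes had 5 of 13 higher and none lower (9 and 2 without replicate 3). PLXNA2 rose from 3222, 2998 and 501 to 6684, 7004 and 1672, and SEMA3E rose by 1.31. The TGF-beta and BMP pathway had 10 of 31 higher and 3 lower (11 and 6 without replicate 3). SMAD7 rose by 0.50 and ACVR1 by 0.34, whereas TGFB2, with 5 gained sites nearest, had a log2 change of −0.12 ± 0.09 (edgeR adjusted p = 0.299). LTBP1 had 28242, 27755 and 4829.6 against 36751, 37765 and 23134 and did not pass in gene bodies (log2 change 1.11, edgeR adjusted p = 0.0555). Without replicate 3 it passed with a smaller change (0.40, edgeR adjusted p = 4.6e-08), and its promoter-proximal counts passed (log2 change 1.24, edgeR adjusted p = 0.00715). G1 regulators had 5 of 20 higher and 2 lower (5 and 7 without replicate 3). CDK6 rose from 9291, 10286 and 7536 to 22587, 25462 and 16183, and CDKN2A from 267, 329.6 and 330.3 to 676, 932 and 396. CCND2, a G1 cyclin with 1 gained site nearest, had a log2 change of −0.27 ± 0.09 (edgeR adjusted p = 0.0617) and was lower without replicate 3 (−0.36, edgeR adjusted p = 6.37e-05). JUN rose from 115, 170 and 151 to 441, 575 and 352, while the AP-1 and ATF family had 3 of 15 higher and 4 lower (3 and 6 without replicate 3). Receptor tyrosine kinases had 6 of 22 higher and 5 lower (9 and 8 without replicate 3), with IGF1R up by 0.28 (0.16 without replicate 3) and ERBB3 down to 206, 193 and 78.2 from 279.7, 280.5 and 127. WNT genes had 8 of 27 higher and 2 lower, kidney factors 3 of 18 and 3, and adhesion genes 5 of 14 and 5. Without replicate 3 they had 11 and 9, 7 and 5, and 5 and 6. Over all genes tested 15.5% were higher and 14.6% lower with all replicates, and the kidney factors were near these shares.

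Ribosomal protein genes had 12 of 67 lower and none higher, with a median log2 change of −0.14, and without replicate 3 they had 44 lower and 1 higher. HOX genes had 3 of 23 lower and none higher, and 3 and 2 without replicate 3. BAF and PBAF subunits had 4 of 22 lower and 1 higher, and 12 and 2 without replicate 3. Over all genes tested 14.6% were lower, and 30.7% without replicate 3. With all replicates, the shares lower of ribosomal protein, HOX and BAF genes were near that over all genes. SMARCC2, with a gained site at a start, had a log2 change of −0.03 ± 0.07 (edgeR adjusted p = 0.737), and −0.12 without replicate 3 (edgeR adjusted p = 0.0378). A large number of gained sites did not always come with a change. LSAMP, with 10, had normalised counts of 83390, 116025 and 79256 with EGFP and 84072, 115489 and 90071 with SNF5 (edgeR adjusted p = 0.370), whereas ME3, with 6, rose by 0.84 on the log2 scale. Of the genes nearest to the strongest gained sites, GOLIM4 rose by 0.70 and SLITRK5 by 0.64, and ATP11A, BARD1 and PDCD6IP did not pass. BARD1 passed without replicate 3 (log2 change 0.32 against 0.22, edgeR adjusted p = 1.31e-05).

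**Figure D5:**
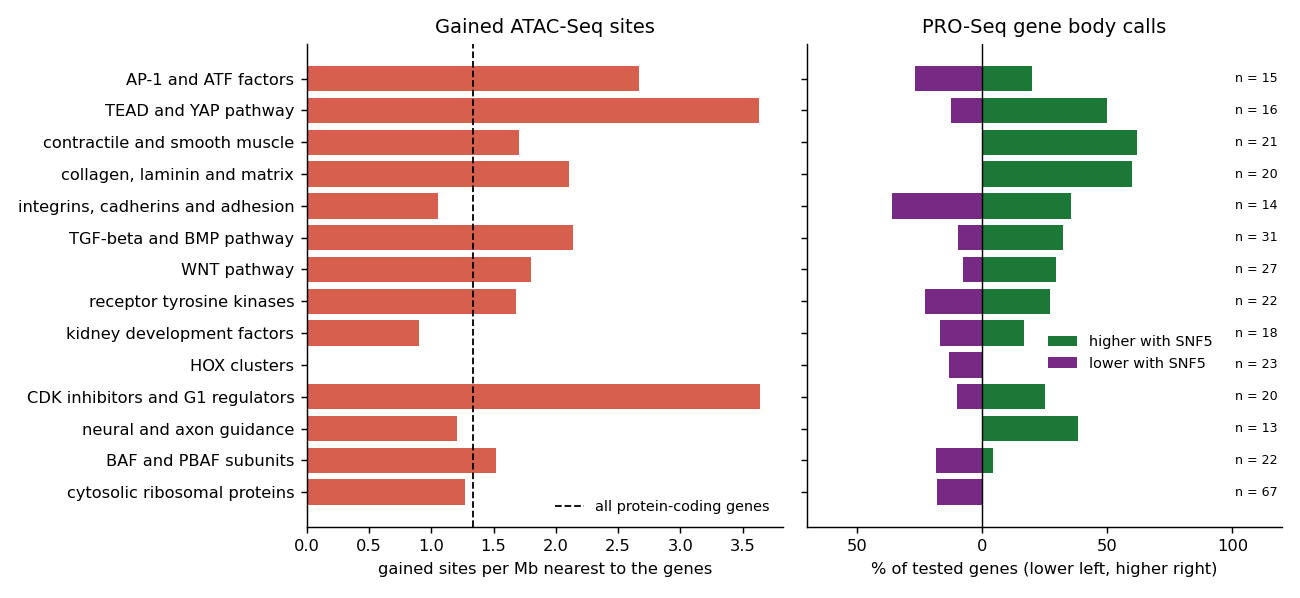
Left, gained sites per Mb nearest to the genes of each of 14 families (x axis), with all protein-coding genes (1.34) as a dashed line. Right, percent of tested genes of each family called higher (green) or lower (purple) with SNF5 in PRO-Seq gene bodies, with the number tested. G1 regulators and TEAD and YAP genes have the most gained sites per Mb, and contractile and matrix genes the largest shares higher.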

How the data were processed

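The 6 ATAC-Seq peak lists and the PRO-Seq counts deposited by the authors were used. Per the labels and the study's methods, ATAC-Seq reads were trimmed with cutadapt, aligned with Bowtie2 to hg38, and MACS2 called the peaks of each sample (q-value 0.001, tags extended to 140 bp). The deposited lists give a score, the fold ratio, and −log10 of p and of q, but no reads. Summit tags and background were solved from the ratio and p under MACS2's Poisson model, to within 0.001 for all peaks. DiffBind and HOMER are also named in the submitters' processing notes. PRO-Seq values were deposited by the authors as raw counts per transcript in gene bodies and promoter-proximal windows (aligned to hg19), and as a signal, the gene body density, which served only to check the counts. MYC ChIP-Seq was not used here.

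Overlapping peaks of all 9 ATAC-Seq samples were merged into 40005 sites, ranked by −log10 q. Distances were taken to GRCh38 starts listed by GENCODE release 44, which gave a start for 95.9% of transcripts. Ranks and log2 levels were tested with limma 3.58.1. PRO-Seq genes averaging 10 counts or more in each region, 1 transcript per symbol, were tested in edgeR 4.0.16 over all 9 samples with RLE factors of gene body counts and the replicate number as a block. The standard error is the log2 change over the root of F. Gene body totals ran from 28388012 to 46859674. Deviations from construct means correlated from 0.81 to 0.92 across genes between samples of the same number (gene body), so the numbers were taken as pairs; in ATAC-Seq they were not. DESeq2 1.42.0 was an alternative. R 4.3.3, Python 3.11.15, pandas 2.3.3 and SciPy 1.17.1 were used, and the fits were tested on simulated data. Adjusted p-values are Benjamini-Hochberg values over all features, and those of group means are from exact permutation tests.

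The members and the 14 gene families (493 genes) were chosen with earlier results of these data known. Genes were named by these rules: SMARCB1; the 12 gained sites of smallest mean rank; lost sites; the 5 largest rank changes each way, as none passed; the 10 genes nearest to most gained sites; up to 4 genes per family with a gained site within 1 kb and up to 2 with most sites nearest; and the 8 genes of smallest PRO-Seq p each way among those with a gained site within 1 kb.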

Additional observations from a re-analysis of the deposited data

Results flagged for a closer look

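The OmoMYC ATAC-Seq samples, which were not compared with EGFP or SNF5, also had peaks at sites gained with SNF5. Their peaks entered the merging into sites, and merging the 6 EGFP and SNF5 lists alone gave 3642 gained sites. A peak lay at 0.852% of the 3638 gained sites in OmoMYC replicate 1 (31 sites), at 35.6% in replicate 2 (1294 sites) and at 7.67% in replicate 3 (279 sites). Gained sites have no called EGFP peak by definition, and EGFP tags there were not measured. The OmoMYC samples differed in length of list, with 7260, 23684 and 12224 peaks, of which 8.97%, 36.9% and 25.4% were at least 5 kb from a TSS. In 2310 gained sites no OmoMYC sample had a peak, and in 5 all 3 had one. The part of list length in these shares was not tested.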

How the results depend on the processing

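Gained and lost sites numbered 1673 and 1 with a −log10 q of at least 10, 325 and 114 with equal numbers of top peaks, and 8916 and 23 with a peak in at least 2 of 3 samples. With summits within 150 bp 21 sites were lost. Leaving out samples, singly or by replicate number, gave from 3729 to 8249 gained (most without replicate 2 of both groups) and from 3 to 30 lost. The distal share of gained sites was 54.8% at the stricter q, 68.6% with equal lists, 61.4% with 2 of 3 samples, 56.2% with 1 minimum level, 75.04% against protein-coding starts, and 58.3% to 64.7% with samples left out. Ranks gave 3 calls with a single peak per site, 12 by summit tags, and 0 to 4 with samples left out. Levels gave from 67 to 1909 calls with samples left out. The ATAC-Seq numbers were not taken as pairs in the main tests. Deviations in rank correlated at 0.041 to 0.093 within a number and at −0.066 to −0.006 across numbers, each sample correlating best with its own. With the replicate block ranks gave 12 calls and levels 3767, and peaks (2.10-fold, exact p = 0.25) and widths kept their direction. PRO-Seq gene bodies gave 112 calls with no replicate block, 5201 with no filter on low counts, 2208 with EGFP and SNF5 samples only, and 761 to 6189 leaving out 1 replicate number. Promoter-proximal counts gave 0 with no replicate block, 301 with DESeq2, 785 with no filter and 71 to 747 leaving out 1 number. Of 40 named genes called in gene bodies, 40 passed with DESeq2, TMM factors, no filter or without replicate 3, 36 with EGFP and SNF5 samples only, 25 without replicate 1, 24 without replicate 2 and 6 with no replicate block, and none changed sign. Causes were not tested. Peak lists hold no tags outside peaks, which limits what an absent peak shows.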
